A study of Mus musculus with 9 samples.

Results

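The genes described here are 10 mouse genes of channels and pumps that move calcium in the oocyte. They were chosen by name, with earlier results of these data known. They are Itpr1, Itpr2, Trpm7, Trpv3, Cacna1h, Orai1, Stim1, Atp2a2, Atp2b1 and Mcu, and all 10 were among the 28052 genes counted. Of these, 8 passed the filter on low counts and were among the 10993 genes tested, whereas Cacna1h and Orai1 had too few counts and are given as values. RNA was measured in growing oocytes of XX, XO and XY females, with 3 pools of 30 oocytes from each genotype, 10 of 50–55 µm and 20 of 55–60 µm in diameter. All pools are labelled C57BL/6 and 18 dpp (days postpartum). XY females, in which the Y chromosome of the B6.YTIR strain leads to ovaries in place of testes, and their XX littermates came from B6.YTIR males and B6 females. XO females came from another cross, B6 females mated with carrier males of Paf (Patchy fur), a stock moved by backcrossing from C3H/HeSnJ onto B6, so that a difference of XO from the others cannot be told apart from the cross.

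Calcium acts as the trigger of egg activation. At fertilization a sperm factor produces inositol trisphosphate, which opens receptor channels in the endoplasmic reticulum (ER), and calcium is released in repeated waves. Pumps return it to the ER or push it out of the cell, mitochondria take up a part, and channels of the plasma membrane let in calcium to refill the stores. Growing oocytes, the stage sampled here, store transcripts for use in maturation and after fertilization.

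The level of a gene is given as normalized CPM, the number of its unique molecular identifiers (UMIs) as CPM of all gene UMIs of the sample, divided by 1 factor per sample derived from ERCC spike-in RNAs. Each transcript is marked at its 5′ end and counted once, so levels of different genes compare numbers of molecules without a correction for length, although a long transcript has to be copied to its 5′ end to be counted. The longest coding transcript ranges from 1.88 kb for Orai1 to 11.7 kb for Itpr2. The samples had between 2130145 and 3157338 gene UMIs. With the spike-in factors the median log2 fold change over all tested genes was -0.46 for XX against XO and -0.19 for XX against XY, and it was -0.30 for XY against XO. Changes of single genes are read against this shift. With factors computed on the genes by TMM (trimmed mean of M values) the same medians were -0.03, -0.04 and -0.02. The spike-in factors were TMM factors too, computed among the spike-ins relative to their own total. The spike-in share of all UMIs, from 0.204% in XX3 to 0.863% in XY1, did not enter them. The shift is therefore not a calibrated difference in RNA content. A gene is called higher or lower where its unadjusted p was below 0.05, the threshold of the study, and the adjusted p beside it (Benjamini-Hochberg over all tested genes) is in most cases far larger.

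XO1 stood apart from the other XO samples, and XY1 differed from the other XY samples by less. XO1 is here the count column that carries no number, which was matched to the first XO sample by its label. Counts of XO1 differed from those of XO2 and XO3 by 118.6 and 139 times the sampling variance (chi-square per degree of freedom over genes), against 5.96 between XO2 and XO3. The same measure was 25.4 for XY1 and XY2, 58.4 for XY1 and XY3 and 15.7 for XY2 and XY3, and it lay between 3.21 and 20.9 among XX samples. All 12 oocyte markers examined were detected, and their summed level was lowest in XO1 with 18350 normalized CPM and in XY1 with 18880, against between 22750 and 36400 in the other 7 samples. Of 12 granulosa cell markers 9 were among the genes counted, with a summed level between 50.4 and 109 normalized CPM. Most of this sum came from Nr5a2, Cyp19a1, Kitl and Cdh2 in every sample. Inha, Wt1 and Amhr2 were below 1 normalized CPM in all samples, and Fshr and Inhba were below the lowest level of Kitl. The granulosa cell content of the pools was not tested. For theca and stroma 5 of 7 markers were counted, with a sum between 0.70 and 4.99. For blood and endothelium 2 of 5 were counted (Pecam1 and Cdh5), with a sum between 16.1 in XO1 and 132 in XO3. Pecam1 alone ranged from 14.5 to 132, and Cdh5 from 0.517 to 5.11. No counted marker was at 0 in all samples. The part of these differences in the values of the calcium genes was not tested. Results are also given without XO1 and XY1, a choice made after the data were seen.

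The genes lie on 7 autosomes. In the coordinates of GRCm38 Itpr1 (chr6:108213096-108551109) and Itpr2 (chr6:146108299-146502223) share chromosome 6, Orai1 (chr5:123015074-123030456) and Atp2a2 (chr5:122453513-122502225) chromosome 5, and Atp2b1 (chr10:98914406-99026143) and Mcu (chr10:59446984-59616692) chromosome 10. Trpm7 is at chr2:126791565-126876230, Trpv3 at chr11:73267388-73300363, Cacna1h at chr17:25374285-25433783 and Stim1 at chr7:102267806-102437319. No exon of another gene overlaps them on the same strand in Gencode vM21. RefSeq promoters of GRCm38.p6 were found for 7 of the 10 genes. Those of Itpr2 and Mcu are shown because their transcripts were low in XO1 and high in XO3, that of Trpm7 because it had the opposite order, and that of Stim1 because its level in all XY samples was above that of all others. Each sequence holds the 250 bases before the start annotated in RefSeq, on the strand of the gene. That start matches the gene coordinates above for Itpr2 and Mcu but not for Trpm7 and Stim1. Capitals mark on either strand the GC box, which reads GGGCGG, and the CCAAT box, named by its letters.
Itpr2, chr6:146502224-146502473, minus strand: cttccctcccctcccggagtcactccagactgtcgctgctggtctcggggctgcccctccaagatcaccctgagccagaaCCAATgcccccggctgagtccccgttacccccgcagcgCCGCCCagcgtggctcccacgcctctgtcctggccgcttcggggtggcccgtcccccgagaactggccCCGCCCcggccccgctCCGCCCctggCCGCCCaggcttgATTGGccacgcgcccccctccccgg
Mcu, chr10:59616693-59616942, minus strand: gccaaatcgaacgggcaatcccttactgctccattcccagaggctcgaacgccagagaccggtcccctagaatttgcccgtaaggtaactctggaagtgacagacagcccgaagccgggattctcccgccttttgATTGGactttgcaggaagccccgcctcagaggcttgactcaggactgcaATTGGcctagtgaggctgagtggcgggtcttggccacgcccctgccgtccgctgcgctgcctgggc
Trpm7, chr2:126876262-126876511, minus strand: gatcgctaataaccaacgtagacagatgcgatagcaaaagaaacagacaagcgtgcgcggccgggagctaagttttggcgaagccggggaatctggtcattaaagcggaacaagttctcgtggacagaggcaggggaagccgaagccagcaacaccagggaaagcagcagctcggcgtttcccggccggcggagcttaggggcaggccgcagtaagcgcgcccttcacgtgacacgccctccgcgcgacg
Stim1, chr7:102267569-102267818, plus strand: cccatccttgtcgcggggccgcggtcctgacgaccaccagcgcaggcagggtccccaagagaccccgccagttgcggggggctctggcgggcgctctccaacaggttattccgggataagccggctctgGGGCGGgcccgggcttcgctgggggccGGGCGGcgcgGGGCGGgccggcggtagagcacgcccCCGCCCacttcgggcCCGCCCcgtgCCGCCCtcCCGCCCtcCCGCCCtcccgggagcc
The Itpr2 promoter had 4 GC boxes and 2 CCAAT boxes and that of Mcu 2 CCAAT boxes. The Stim1 promoter had 8 GC boxes, and the Trpm7 promoter had neither motif. A GC box was held by 32.7% and a CCAAT box by 33.8% of all 32851 promoters. All 4 were rich in CpG, with 22 in Itpr2, 15 in Mcu, 26 in Trpm7 and 31 in Stim1, against a median of 6. None of them held TATAAA, found in 12.4% of promoters, or TAATTA, found in 4.84%.

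The ER release channels were both well expressed. Itpr1 encodes the inositol trisphosphate receptor known as the main calcium release channel of mouse eggs. Its level in XX oocytes was 78.4, 50.8 and 64.3 normalized CPM in samples 1 to 3. In XO oocytes it was 85.4, 91.5 and 107, and in XY oocytes 70.2, 59.6 and 80.9. All 3 XO samples were above all XX and XY samples, and XX and XY overlapped. In pools, fewer oocytes with a transcript and less of it per oocyte cannot be told apart. The log2 fold change was -0.55 ± 0.27 (SE) for XX against XO, which was not called (edgeR quasi-likelihood test, adjusted p = 0.302), and -0.12 with TMM factors. The median of all genes moved by nearly the same amount, and relative to it the difference was -0.10 with the spike-in factors and -0.09 with TMM. As CPM of gene UMIs, with no spike-in factor, XO values of 71.5, 77.5 and 75.4 lay within the XX values of 88.2, 59.3 and 80.1. The difference of Itpr1 from XO therefore depended on the spike-in scaling. With 1 surrogate variable from sva added to the edgeR model, XX against XO was -0.52 ± 0.18 (called, adjusted p = 0.0351). Relative to the median of all genes in that fit this was -0.20. XY against XO was then -0.39 ± 0.18 (called, adjusted p = 0.151). In the log2 matrix with batch effects regressed out by the authors, the means of XX, XO and XY were 6.26, 6.19 and 6.25.

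Itpr2 encodes a second receptor of the same family. Its level was 81.6, 68.6 and 134 normalized CPM in XX oocytes, 17.1, 192 and 216 in XO oocytes and 42.8, 102 and 186 in XY oocytes. XO1 was the lowest and XO3 the highest of all 9 samples, and the genotypes overlapped. The level in XO3 was 12.6-fold that in XO1, and the level in XY3 was 4.35-fold that in XY1, whereas XX3 and XX1 differed 1.64-fold. The SD of log2(normalized CPM + 1) within genotypes was 1.35 for Itpr2, which exceeded that of 94.3% of tested genes, and 0.24 for Itpr1, which exceeded that of 8.25%, against a median of 0.53. For Itpr2 the log2 fold change was -0.58 ± 0.79 for XX against XO and -0.05 with TMM factors. Without XO1 and XY1 it was -1.06 ± 0.33 (edgeR, called, adjusted p = 0.0247). The sign turned to 0.46 when 1 surrogate variable from sva was added to the edgeR model, and this was called (adjusted p = 0.0379). In the matrix from which the authors had regressed out batch effects, Itpr2 was likewise lower in XO with 5.43 ± 0.43 (log2, SD, n = 3) than in XX with 7.10 ± 0.08. The direction of Itpr2 between XX and XO was thus turned by the surrogate variable and in the batch-regressed matrix. With the replicate number as a block it was -0.10 ± 0.62, and limma-voom with no batch term gave 0.02 ± 0.94. Whether the corrected component holds a technical or a genotype difference was not tested.

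**Figure D1:**
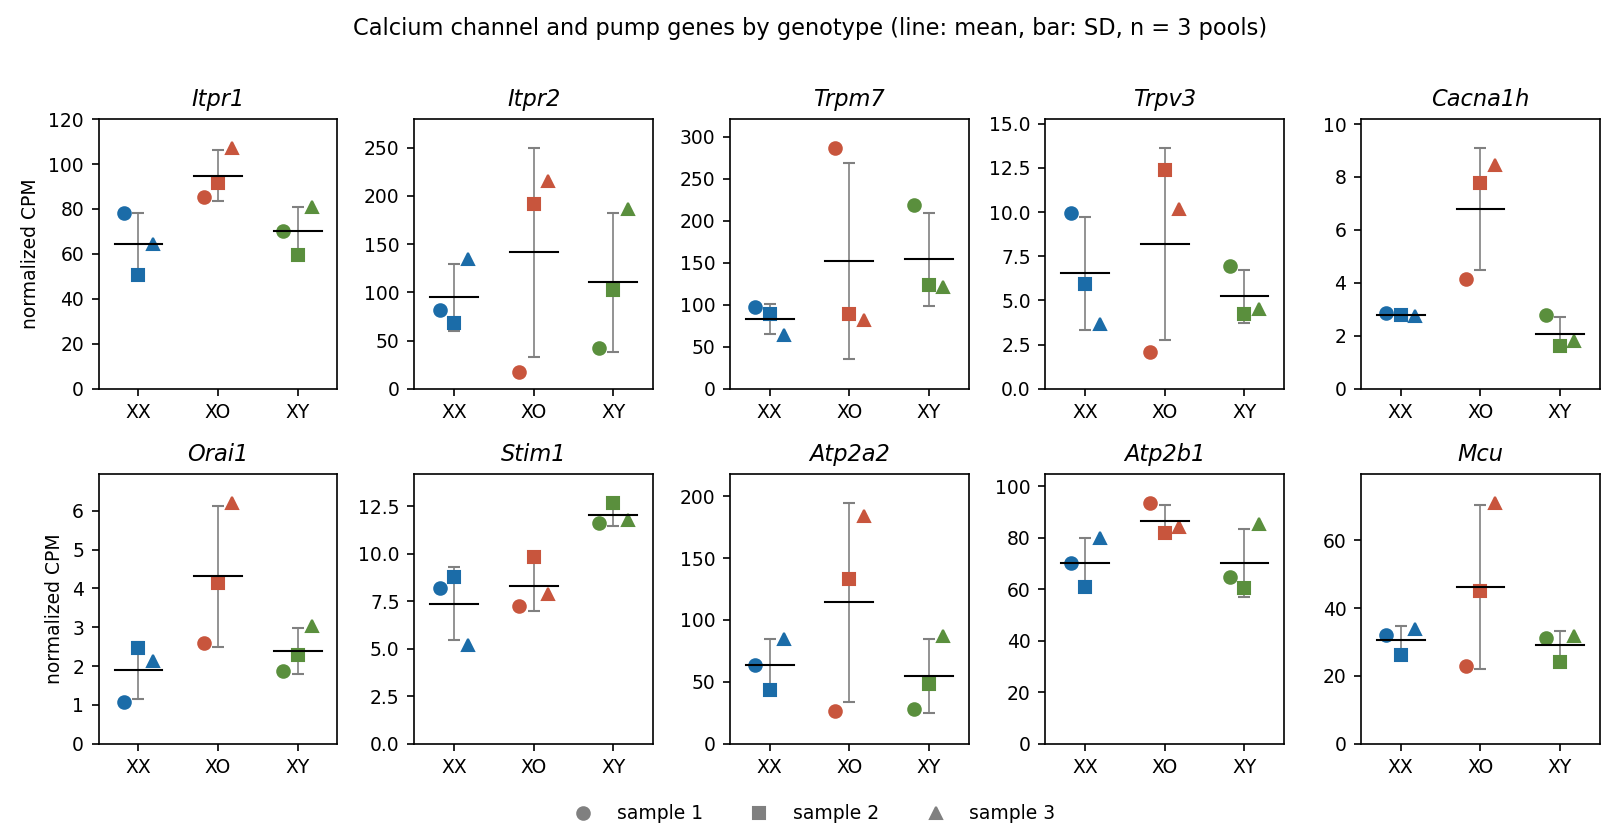
Normalized CPM (vertical axis, linear, from 0) of the 10 genes in XX, XO and XY oocytes, with circles, squares and triangles for samples 1, 2 and 3, the line for the mean and the bar for the SD of 3 pools. XO1 (circle) is the lowest of the 9 samples for Itpr2, Trpv3, Atp2a2 and Mcu and the highest for Trpm7, and the XY samples of Stim1 lie above all others.

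The share of each receptor within a sample does not depend on any scaling between samples. Itpr1 made up 49.0, 42.2 and 32.3% of the UMIs of Itpr1, Itpr2 and Itpr3 in XX1, XX2 and XX3. In XO samples the share was 82.1, 32.2 and 32.9%, and in XY samples 62.1, 36.5 and 30.2%. The Wilson 95% interval, which covers counting error only, was 44.4 to 53.6% for XX1. XO1 and XY1 thus held mainly Itpr1 and the other XO and XY samples mainly Itpr2. The mean share was 41.2 ± 8.39% (SD, n = 3) for XX, 49.1 ± 28.6% for XO and 43.0 ± 16.9% for XY samples. No pair of genotypes differed beyond this spread (exact permutation tests, two-sided, p = 0.9 for XX against XO, 0.9 for XX against XY and 0.8 for XY against XO, where 3 against 3 allows no p below 0.1).

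Among the influx channels of the plasma membrane Trpm7 was the most abundant. TRPM7, a channel for divalent cations joined to a kinase, is known together with TRPV3 and the T-type channel CaV3.2 (Cacna1h) to carry calcium into mouse eggs. Trpm7 was at 97.6, 88.9 and 63.4 normalized CPM in XX oocytes, 287, 88.4 and 81.9 in XO oocytes and 218, 123 and 121 in XY oocytes. All 3 XY samples were above the XX samples, whereas XO2 and XO3 lay within the XX range and XO1 far above it. XO3 had 0.285 times the level of XO1 and XY3 0.557 times that of XY1, the opposite order to Itpr2. The log2 fold change of XX against XY was -0.89 ± 0.51 (edgeR, not called, adjusted p = 1.0) and -0.73 with TMM factors. Without XO1 and XY1 it was -0.61 ± 0.26 (called, adjusted p = 0.262), and the difference of XX from XO shrank from -0.87 to 0.02. With the surrogate variable and all samples, XX was lower than XO by -0.85 ± 0.16 (edgeR, called, adjusted p = 0.000358) and lower than XY by -0.82 ± 0.15 (called, adjusted p = 0.00096). In the matrix with batch effects regressed out the XX samples had 6.42 ± 0.08 for Trpm7 (log2, SD, n = 3), below 7.05 ± 0.02 for XO and 7.12 ± 0.16 for XY. With XO1 and XY1 left out, Trpm7 was higher in XY than in XO by 0.63 ± 0.29 (called, adjusted p = 0.20), against 0.02 ± 0.51 with all samples.

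Trpv3, a cation channel whose current appears as oocytes mature, was low, with 9.97, 5.95 and 3.66 normalized CPM in XX, 2.07, 12.4 and 10.2 in XO and 6.97, 4.23 and 4.53 in XY samples. These values rest on between 4 and 28 UMIs per sample, and all genotypes overlapped. Its log2 fold change was -0.33 ± 0.60 for XX against XO, 0.12 with TMM factors, and -0.66 ± 0.62 for XY against XO. Without XO1 and XY1 the latter was -1.24 ± 0.52 (edgeR, called, adjusted p = 0.161). Cacna1h, the pore subunit of the T-type channel, was at 2.85, 2.80 and 2.74 normalized CPM in XX, 4.14, 7.75 and 8.47 in XO and 2.79, 1.63 and 1.81 in XY samples. The XO samples were above all XX and XY samples, by counts of 8, 15 and 15 UMIs against 5 to 9. The exact Poisson interval of the 8 UMIs of XO1 was 3.45 to 15.8, so that the gap between XO1 and the XX samples was within counting error. When no filter on low counts was applied, Cacna1h was lower in XX than in XO by a log2 fold change of -1.26 ± 0.63 (edgeR, adjusted p = 0.329) and lower in XY than in XO by -1.71 ± 0.65 (adjusted p = 0.184), and both were called. No filter lets in many genes with few counts, and of all genes 14.1% were then called for XX against XO, 9.75% for XY against XO and 4.33% between XX and XY. With some samples left out Cacna1h passed the filter, but not without XO2 or without XO3, where it was high, so that its calls in those fits are not counted here.

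Trpm7 made up most of the UMIs of the trio of Trpm7, Trpv3 and Cacna1h. The share was 88.4, 91.0 and 90.8% in XX samples, 97.9, 81.4 and 81.5% in XO samples and 95.7, 95.5 and 95.0% in XY samples. XX and XY samples did not overlap, with a difference of -5.32 percentage points (exact permutation test, two-sided, p = 0.1, the smallest that 3 against 3 allows, and 0.9 after adjustment over the 9 share tests). XO samples fell on both sides of the XX and XY samples.

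**Figure D2:**
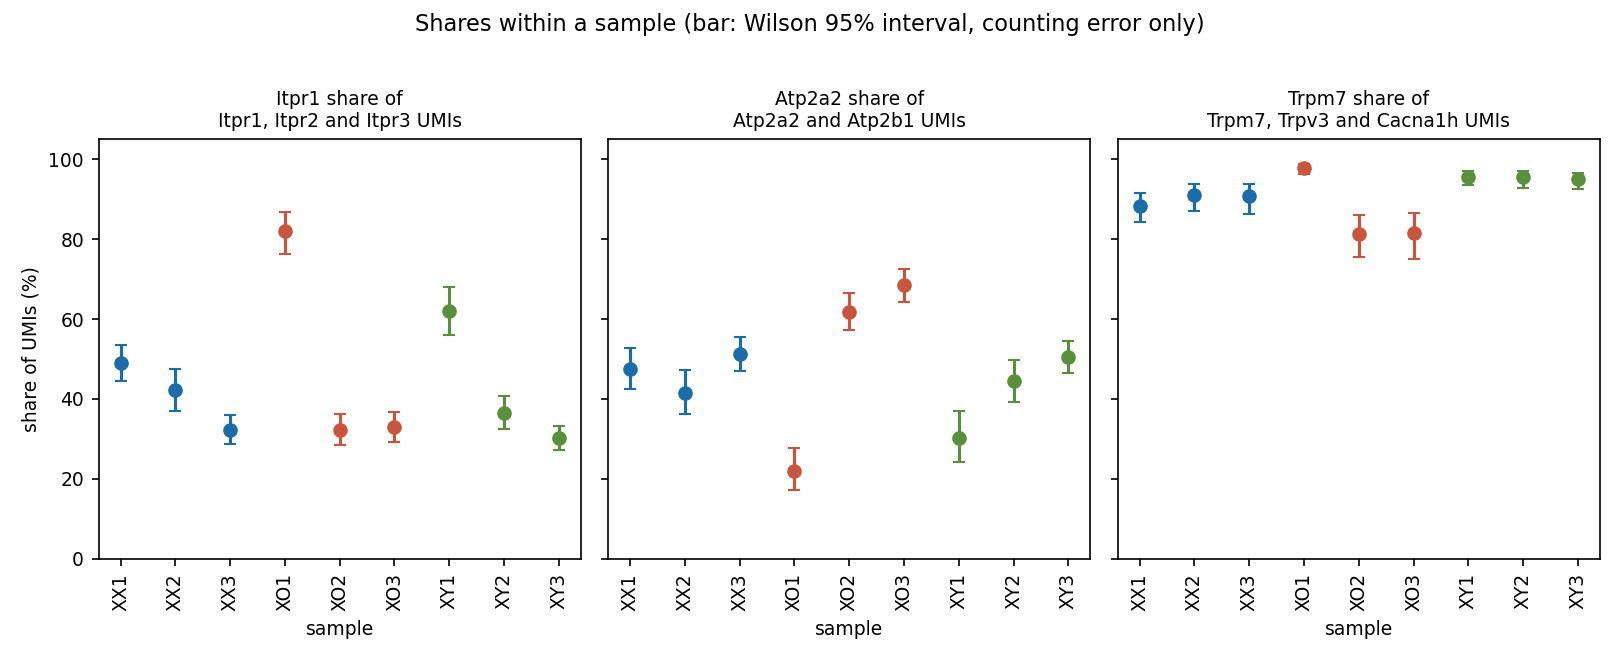
Share of UMIs in percent (vertical axis) held by Itpr1 among the inositol trisphosphate receptors, by Atp2a2 among Atp2a2 and Atp2b1, and by Trpm7 among Trpm7, Trpv3 and Cacna1h, for each of the 9 samples, with Wilson 95% intervals. XO1 and XY1 have the highest Itpr1 shares (82.1 and 62.1%) and the lowest Atp2a2 shares (22.0 and 30.2%).

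Store-operated entry refills the ER through ORAI channels of the plasma membrane that are opened by STIM1, a sensor of ER calcium. Stim1 was at 8.19, 8.75 and 5.18 normalized CPM in XX oocytes, 7.25, 9.82 and 7.90 in XO oocytes and 11.6, 12.7 and 11.8 in XY oocytes. All 3 XY samples were above all others, on counts of 25, 39 and 39 UMIs, and XX and XO overlapped. The order stood without the spike-in factors, since as CPM of gene UMIs Stim1 was between 11.7 and 14.7 in XY samples and between 6.46 and 10.2 in XX samples. The log2 fold change of XX against XY was -0.71 ± 0.32 (edgeR, not called, adjusted p = 0.864), and it was -0.74 by limma-voom, which called it. Stim1 was higher in XY than in XO by 0.53 ± 0.32 (not called, adjusted p = 0.57), and by 0.82 ± 0.32 with TMM factors (called, adjusted p = 0.53). Orai1, the pore of the channel, was near the lower end of detection with 1.07, 2.45 and 2.13 normalized CPM in XX, 2.59, 4.14 and 6.21 in XO and 1.86, 2.28 and 3.02 in XY samples. These are between 3 and 11 UMIs per sample. XO1 exceeded XX2, the highest XX sample, by less than counting error, and without the spike-in factors XX and XO overlapped.

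The calcium pumps and the mitochondrial channel differed in how steady they were. Atp2a2 encodes SERCA2, which returns calcium to the ER. Its level was 63.8, 43.4 and 84.4 normalized CPM in XX, 26.4, 133 and 184 in XO and 27.9, 48.5 and 87.2 in XY samples. XO1 and XY1 were the lowest of all samples, XO2 and XO3 the highest, and the genotypes overlapped. The level in XO3 was 6.97-fold that in XO1, and the level in XY3 was 3.13-fold that in XY1. Its log2 fold change was -0.84 ± 0.65 for XX against XO and -1.06 ± 0.65 for XY against XO, neither of them called (edgeR, adjusted p = 0.481 and 0.57). Without XO1 and XY1 the values were -1.27 ± 0.33 (adjusted p = 0.0102) and -1.12 ± 0.37 (adjusted p = 0.0814), and both were called. With the surrogate variable they were -0.14 ± 0.18 (not called, adjusted p = 0.594) and -0.41 ± 0.18 (called, adjusted p = 0.129). In the matrix with batch effects regressed out the order of XX and XO was the opposite, since XO had 5.57 ± 0.20 (log2, SD, n = 3) and XX 6.45 ± 0.22, with XY at 6.01 ± 0.27.

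Atp2b1, a plasma membrane pump that expels calcium, was the steadiest of the genes, with 70.2, 60.9 and 80.1 normalized CPM in XX, 93.7, 81.7 and 84.1 in XO and 64.6, 60.5 and 85.4 in XY samples. Its SD within genotypes was 0.20, larger than that of 4.34% of tested genes. The XO samples were above the XX samples, but the log2 fold change of -0.30 ± 0.26 was not called (edgeR, adjusted p = 0.535) and was 0.13 with TMM factors. Mcu, the pore of the mitochondrial calcium uniporter, was at 32.1, 26.3 and 33.8 normalized CPM in XX, 22.8, 45.0 and 71.1 in XO and 31.1, 24.1 and 31.7 in XY samples. XX and XY samples overlapped, while XO1 was below and XO2 and XO3 were above all others. Its log2 fold change was -0.59 ± 0.39 for XX against XO (not called, adjusted p = 0.413) and, without XO1 and XY1, -0.88 ± 0.30 (called, adjusted p = 0.0387). It was -0.35 ± 0.23 with the surrogate variable (not called, adjusted p = 0.269). With batch effects regressed out Mcu, too, was lower in XO, at 4.84 ± 0.09 (log2, SD, n = 3), than in XX, at 5.30 ± 0.11, with XY at 5.09 ± 0.24.

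The proportion of the pumps shifted in the same samples as that of the receptors. Atp2a2 made up 47.6, 41.6 and 51.3% of the UMIs of Atp2a2 and Atp2b1 in XX, 22.0, 61.9 and 68.6% in XO and 30.2, 44.5 and 50.5% in XY samples. XO1 and XY1 were the lowest. The genotypes overlapped, and their means (46.8 ± 4.89% for XX, 50.8 ± 25.2% for XO, 41.7 ± 10.5% for XY, SD, n = 3) gave exact permutation p-values between 0.6 and 0.9.

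**Figure D3:**
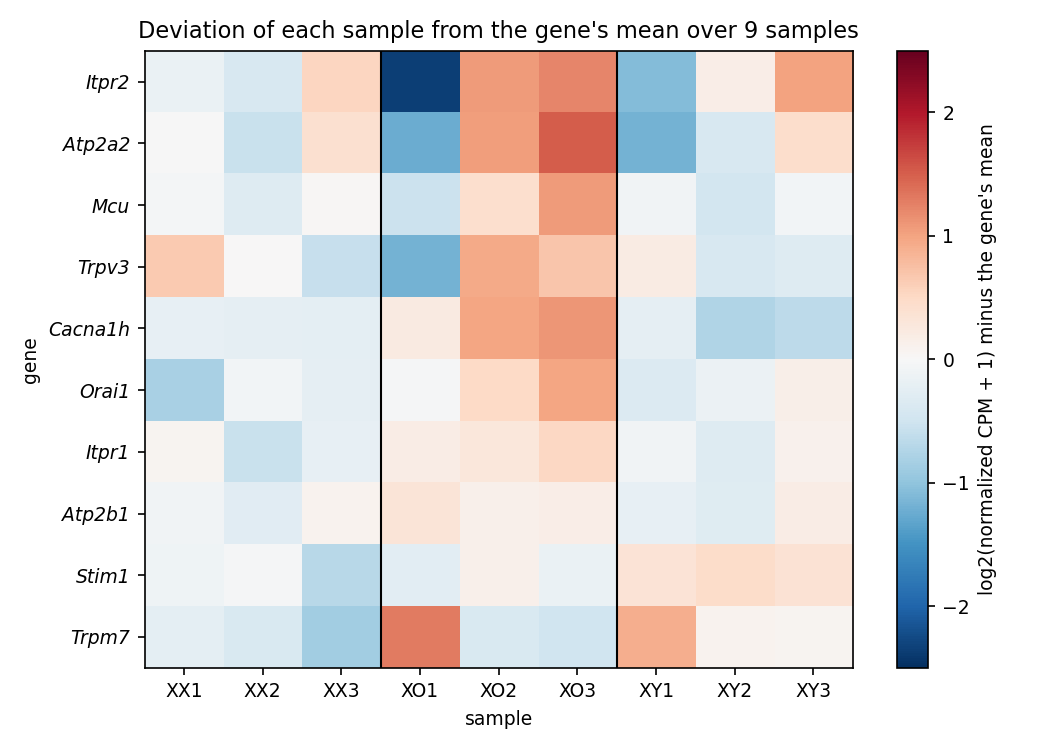
Heat map of log2(normalized CPM + 1) of each gene (rows) in each sample (columns) minus the mean of the gene over the 9 samples, with red for higher and blue for lower. Itpr2 and Atp2a2 are low in XO1 and XY1 and high in XO2 and XO3, Trpm7 is high in XO1 and XY1, and Itpr1 and Atp2b1 are close to their means in all samples.

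By level, the order of the genes over all 9 samples was Trpm7 (mean of 130 normalized CPM), Itpr2 (115.5), Atp2a2 (77.6), Itpr1 (76.5), Atp2b1 (75.7), Mcu (35.3), Stim1 (9.24), Trpv3 (6.66), Cacna1h (3.89) and Orai1 (2.86). Trpm7 and Itpr2 did not differ beyond the spread over samples, since each was the higher in some of them, nor did Atp2a2, Itpr1 and Atp2b1 from each other. The ranges of Stim1 and Trpv3 overlapped as well, as did those of Cacna1h and Orai1. Mcu was below these 5 genes in every sample except XO1, where it exceeded Itpr2, and XY1, where it exceeded Atp2a2, and it was above the 4 genes that follow in all 9 samples. Smim8, Rassf1, Pcbp2, Sap30bp and Atg5 were the 5 tested genes whose pattern over the samples was most like that of Itpr1. Their Pearson coefficients with Itpr1, of log2(normalized CPM + 1) over the 9 samples, lay between 0.965 and 0.977. All genes share these libraries and their scaling. The mean levels of the 5 genes differed, from 5.71 normalized CPM for Rassf1 to 87.4 for Pcbp2.

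As a group, 0 of the 8 tested genes were called in each of the contrasts, by edgeR and by DESeq2, and limma-voom called 1 (Stim1, XX against XY). Among all 10993 tested genes edgeR called 18.1% for XX against XO, 5.8% for XX against XY and 9.93% for XY against XO. The lowest adjusted p of a member was 0.302, 0.864 and 0.549 in the same order. The log2 fold change of XX against XO was negative for all 8, with a median of -0.57 against -0.46 over all tested genes, and 3 of them (Trpv3, Stim1 and Atp2b1) turned positive with TMM factors. For XX against XY 4 were positive and 4 negative, with a median of -0.06 against -0.19, and Itpr1 turned positive with TMM factors. For XY against XO 2 were positive (Trpm7 and Stim1) and 6 negative, with a median of -0.39 against -0.30, and Itpr2 turned to 0.01 with TMM factors. With TMM factors the calls were 0, 0 and 1 (Stim1), where 11.9%, 5.35% and 9.07% of all genes were called. DESeq2 called 13.7%, 5.24% and 10.2% of all genes and limma-voom 11.7%, 6.0% and 6.49%. With the surrogate variable 3, 2 and 3 of the 8 were called, against 37.9%, 23.1% and 28.2% of all genes. With the replicate number as a block 1, 2 and 0 were called, against 23.0%, 9.16% and 16.6%.

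**Figure D4:**
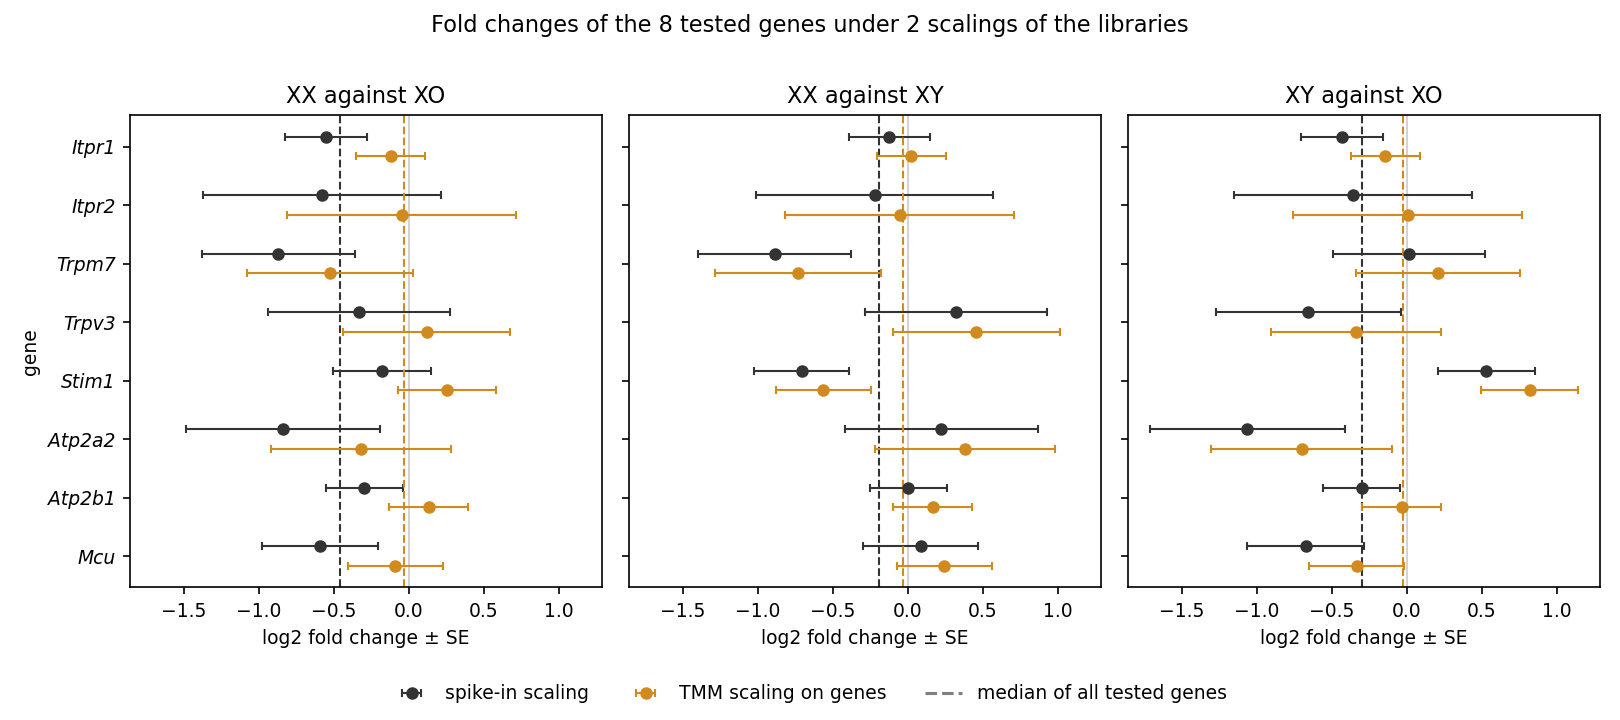
Log2 fold change ± SE (horizontal axis) of the 8 tested genes in the 3 contrasts, from edgeR with spike-in factors (black) and with TMM factors computed on the genes (orange), and the median of all tested genes under each (dashed). All 8 values of XX against XO are below 0 with spike-in factors, around a median of -0.46, whereas Trpv3, Stim1 and Atp2b1 are above 0 with TMM factors.

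Without XO1 and XY1 the calls among the same 8 genes were 3 for XX against XO (Itpr2, Atp2a2 and Mcu, all lower in XX and all with an adjusted p below 0.05), 2 for XX against XY (Trpm7 and Stim1, both lower in XX) and 4 for XY against XO (Trpm7 higher, Mcu, Atp2a2 and Trpv3 lower in XY). The corresponding shares of all genes were 39.8%, 16.6% and 24.6%. This leaves 2 samples of XO and 2 of XY. When XO1 alone was left out the calls were 2, 2 and 4 of 8, where 35.1%, 11.0% and 29.9% of all genes were called. By the plain order of the samples, 4 of the 10 genes (Itpr1, Cacna1h, Orai1 and Atp2b1) were lower in every XX than in every XO sample, against 15.6% of all genes that reached 1 normalized CPM on average. Trpm7 and Stim1 were lower in every XX than in every XY sample, against 15.4% of genes, and 3 genes separated XY from XO (Itpr1 and Cacna1h lower, Stim1 higher in XY), against 10.2%. These counts use the spike-in factors. As CPM of gene UMIs, Itpr1, Orai1 and Atp2b1 overlapped between XX and XO and Itpr1 between XY and XO, while the order of Cacna1h, Trpm7 and Stim1 stood. The comparisons share their samples and are not independent of each other.

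The other genes of calcium handling were taken from a list of 144 genes in 11 classes, of which 127 were counted and 65 tested. For XX against XO 1 was higher and 14 were lower in XX, 23.1% of the 65. For XX against XY 1 was higher and 3 were lower (6.15%), and for XY against XO none was higher and 6 were lower (9.23%). Over all tested genes the shares were 18.1%, 5.8% and 9.93%, of which most were likewise lower in the genotype named first (16.7%, 4.39% and 8.24% of all genes). None of the 65 had an adjusted p below 0.05. With TMM factors the calls higher and lower were 3 and 7, 4 and 2, and 3 and 3. They made up 15.4%, 9.23% and 9.23% of the 65, against 11.9%, 5.35% and 9.07% of all genes. When XO1 and XY1 were left out the calls higher and lower were 2 and 26 for XX against XO, 2 and 11 for XX against XY and 2 and 21 for XY against XO. These are 43.1%, 20.0% and 35.4% of the 65, against 39.8%, 16.6% and 24.6% of all genes.

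Among the ER release channels of that list the ryanodine receptors Ryr2 and Ryr3 were tested, with means of 8.07 and 6.70 normalized CPM. Ryr3 was lower in XY (5.11, 3.91 and 4.23) than in XO samples (8.28, 8.27 and 9.03), by a log2 fold change of -0.95 ± 0.36 (edgeR, called, adjusted p = 0.485), and with TMM factors the value was -0.67 and not called. Upstream of the receptors, none of the 5 tested genes of phospholipase C and inositol trisphosphate turnover was called with all samples. Without XO1 and XY1, 4, 1 and 4 of them were called lower in the 3 contrasts. The shares of all genes called in that fit were 39.8%, 16.6% and 24.6%. Plcb1, a phospholipase C, was the highest of the list with a mean of 1570 normalized CPM, and it ranged from 618 in XO1 to 3750 in XO3. Its log2 fold change was -1.39 ± 0.63 for XX against XO (edgeR, not called, adjusted p = 0.281). Plcb1 was called in each contrast without XO1 and XY1, with -1.81 ± 0.32 for XX against XO (adjusted p = 0.00109), -0.78 ± 0.32 for XX against XY (adjusted p = 0.246) and -1.02 ± 0.36 for XY against XO (adjusted p = 0.0958). None of the 3 tested receptor partners was called with all samples. Ahcyl1, which encodes the receptor inhibitor IRBIT, was the highest of them with a mean of 47.6. Without XO1 and XY1 it was called higher in XY than in XX and than in XO. The values were -0.65 ± 0.26 for XX against XY (edgeR, adjusted p = 0.236) and 0.76 ± 0.29 for XY against XO (adjusted p = 0.127). Another of the 3 partners was called lower in XX than in XO and than in XY in that fit.

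Of 8 tested TRP channels 4 were lower in XX than in XO, a contrast in which 16.7% of all genes were lower. Trpa1 was at 6.06, 3.15 and 4.57 normalized CPM in XX, 25.9, 7.24 and 13.5 in XO and 14.4, 12.0 and 15.4 in XY samples, so that XX was below both without overlap. Its log2 fold change was -1.75 ± 0.48 against XO and -1.59 ± 0.47 against XY (edgeR, adjusted p = 0.204 and 0.545), and it kept the sign and the call with TMM factors. Mcoln1, a channel of lysosomes also called for XX against XO (-3.7 ± 0.96, edgeR, adjusted p = 0.204), was at 14.0 and 26.0 in XO2 and XO3. It was at 1.55 in XO1 and 0.609 to 1.42 in XX samples. Since 1 UMI equals between 0.302 (XY3) and 0.565 (XO3) normalized CPM, these low values rest on few UMIs. Pkd2, the polycystin channel, was 38.8, 111 and 115 in XO and between 32.8 and 41.4 in XX samples. None of the 6 tested subunits of voltage-gated channels was called with all samples. Without XO1 and XY1, 2 were called for XX against XO and 1 for XX against XY, against 39.8% and 16.6% of all genes. Cacnb2, a beta subunit, was the highest with a mean of 212 normalized CPM and a log2 fold change of XX against XO of -0.15 ± 0.26.

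In store-operated entry Orai2 was the main ORAI gene, with a mean of 89.7 normalized CPM against 2.86 of Orai1. It was at 175, 135 and 92.9 in XX, 76.6, 75.5 and 56.5 in XO and 96.7, 55.7 and 44.4 in XY samples. The XX samples were above all XO samples and overlapped with XY1. Orai2 was the 1 gene of the list that was higher in XX than in both others, by 0.95 ± 0.37 against XO (edgeR, adjusted p = 0.242) and 1.03 ± 0.37 against XY (adjusted p = 0.697), and by 1.35 and 1.18 with TMM factors.

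Of the intracellular pumps Atp2c1, the calcium and manganese pump of the Golgi, was at 182, 173 and 144 normalized CPM in XX and 296, 285 and 371 in XO samples. It was called lower in XX than in XO, at -0.93 ± 0.27 (edgeR, adjusted p = 0.204), and was -0.49 and not called with TMM factors. None of the 6 tested plasma membrane pumps and exchangers was called with all samples. Without XO1 and XY1, 1, 1 and 2 were called in the 3 contrasts, against 39.8%, 16.6% and 24.6% of all genes. Nptn, a partner of the plasma membrane pumps, was the highest of the class with a mean of 19.5. In the mitochondrial class 2 of 8 tested genes were lower in XX than in XO, against 16.7% of all genes. Ghitm, an inner membrane protein, was at 26.7, 28.4 and 40.5 in XX, 51.8, 88.4 and 143 in XO and 39.5, 27.3 and 55.8 in XY samples, and its log2 fold change of XX against XO was -1.56 ± 0.42. Mcur1, a regulator of the uniporter, was the highest of its class with a mean of 837 and ranged from 231 in XO1 to 2310 in XO3, the same extremes as Itpr2. The log2 fold change of Mcur1 for XX against XO was -2.02 ± 0.79 (edgeR, called, adjusted p = 0.2405). It was -1.485 and not called with TMM factors.

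Of 11 tested ER calcium-binding proteins 4 were lower in XX than in XO and 2 lower in XY than in XO, where 16.7% and 8.24% of all genes were lower. Both of the latter, Calr3 and Pdia6, were low in XO1 and highest in XO3. Pdia6, a disulfide isomerase, was at 3.11, 31.0 and 68.9 normalized CPM in XO samples, and Calr3, a relative of calreticulin, at 24.9, 73.9 and 120. Hsp90b1, the chaperone GRP94, was the highest of the class with a mean of 226 and a log2 fold change of XX against XO of -0.06 ± 0.40. Of 11 tested genes that decode calcium signals 3 were lower in XX than in XO and 2 lower in XX than in XY, against 16.7% and 4.39% of all genes. Calm2, which encodes calmodulin, was at 154, 146 and 170 in XX, 190, 481 and 695 in XO and 149, 162 and 238 in XY samples. Its log2 fold change was -1.54 ± 0.45 for XX against XO and -1.31 ± 0.45 for XY against XO, and both calls were also made with TMM factors. Ppp3ca, a catalytic subunit of calcineurin, was at 8.55, 6.30 and 12.8 in XX and 10.2, 20.5 and 45.3 in XY samples, a log2 fold change of -1.46 ± 0.63 (called, adjusted p = 0.809). It was -1.29 and not called with TMM factors.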

How the data were processed

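Growing oocytes of XX, XO and XY females were analysed as pools with 3 biological replicates per genotype. The authors aligned Smart-seq3 reads with HISAT2 to GRCm38 and deposited the number of 5′ UMIs per gene as counts, a signal called normalized CPM here (the counts divided by gene total and spike-in factor), and log2 values from which batch effects had been regressed out. Spike-in factors computed again from the counts matched those of the deposited signal to a relative 8.88e-16. The XO column without a number was taken as XO1. Counts were tested with edgeR 4.0.16 (quasi-likelihood, filterByExpr, all 9 samples, spike-in factors, two-sided). Calls use p below 0.05 before adjustment, following the study, with Benjamini-Hochberg values over all genes tested. P-values rest on the spread between pools. The script was tested on simulated counts.

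Alternatives were TMM factors on the genes, DESeq2 1.42.0, no filter, the replicate number as a block, sva 3.50.0, limma 3.58.1 (voom), each sample left out and, added after the data were seen, XO1 and XY1 left out. Deviations from the genotype means correlated between XO and XY samples of the same number (0.803, 0.269 and 0.757 for 1, 2 and 3). Pairs of unlike number came close, with 0.692 for XY3 and XO2 and 0.162 for XY2 and XO3. These values therefore do not establish a pairing by number. Between XX and the others, samples of the same number did not correlate for all numbers.

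The members, gene lists and tests were chosen with earlier results of these data known. Named genes are all 10 members, from the list of calcium genes the called genes of smallest p that reach 5 normalized CPM on average (at most 8 per contrast) and the highest gene of each class, and the 5 genes most like Itpr1. Promoters came from RefSeq (GRCm38.p6), upstream bases only. Counts of 0 and intervals cover counting error only.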

Additional observations from a re-analysis of the deposited data

How the results depend on the processing

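With spike-in factors 0 of the 8 tested members were called in each contrast, and the shares in brackets are those of all genes called. For XX against XO the number was 1 with the replicate block (Itpr1, 23.0%), 3 with sva (37.9%) and 3 without XO1 and XY1 (39.8%). For XX against XY it was 2 with the replicate block (Trpm7 and Stim1, 9.16%), 2 with sva (23.1%), 1 with limma-voom (6.0%) and 2 without XO1 and XY1 (16.6%). For XY against XO it was 1 with TMM factors (9.07%), 1 without the filter (Atp2a2, 9.75%), 3 with sva (28.2%) and 4 without XO1 and XY1 (24.6%). In that contrast the replicate block gave 0. Leaving out each sample in turn gave between 0 and 2, 0 and 2, and 0 and 4 calls, and the highest of each came without XO1 (35.1%, 11.0% and 29.9%). The 1 other call was Trpm7 for XX against XO without XO3.

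The sign of log2 fold changes turned in the following cases, and the cause was not tested. With TMM factors XX against XO was 0.12 for Trpv3, 0.26 for Stim1 and 0.13 for Atp2b1 (DESeq2 0.025, 0.14 and 0.011), XX against XY was 0.024 for Itpr1 (DESeq2 0.039), and XY against XO was 0.0074 for Itpr2. For Itpr2, sva gave 0.46 for XX against XO and 0.59 for XY against XO, limma-voom 0.016 and 0.039, and the replicate block 0.10 for XX against XY. For Trpm7, XY against XO was -0.029 with sva, and XX against XO was 0.022 without XO1 and XY1. Without these samples XX against XY was -0.15 for Atp2a2 and -0.11 for Atp2b1.

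With each sample left out in turn, the values of XX against XO ranged from -1.17 to 0.023 for Trpm7, -0.74 to 0.10 for Trpv3 and -0.32 to 0.082 for Stim1. Those of XX against XY ranged from -0.24 to 0.022 for Itpr1, -0.61 to 0.39 for Itpr2, -0.046 to 0.61 for Trpv3, -0.088 to 0.75 for Atp2a2, -0.12 to 0.18 for Atp2b1 and -0.046 to 0.19 for Mcu. Those of XY against XO ranged from -0.87 to 0.081 for Itpr2 and -0.32 to 0.92 for Trpm7. The share of Itpr1 among the receptors differed by -16.3 to 8.60 percentage points for XX against XO, -8.18 to 7.78 for XX against XY and -15.7 to 10.4 for XY against XO, and that of Atp2a2 by -18.4 to 4.88, -0.663 to 9.52 and -23.6 to -0.238. The share of Trpm7 kept its sign in each contrast.

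For the 8 tested members and all alternatives, 316 values kept their direction and their side of the threshold, 38 turned and 30 passed the threshold. Orai1 and Cacna1h rest on at most 11 and 15 UMIs per sample, and counting error limits their comparison.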
